A study of Mus musculus with 354 samples.

Results

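The genes described here are 10 that build the protein folding machinery of the endoplasmic reticulum (ER), Hspa5, Hsp90b1, Calr, Canx, Pdia3, Pdia4, Pdia6, Ddost, Sdf2l1 and Rcn3, out of 55367 genes in the count files. They were chosen by name, and all 10 had counts in every plate. The question was whether cells that devote a large share of their RNA to Spp1, which encodes the secreted matrix protein osteopontin, also carry more of this machinery or the marks of a stress response in the ER. Supporting cells of the cochlea were sorted as GFP+ cells from P3 mouse pups and sequenced 1 by 1 with SMART-Seq Single PLUS. There were 177 CA-ERBB2 and 177 Control cells, on 3 plates of 59 cells for each genotype.

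Every pup carried Fgfr3-iCre and ROSA-floxed-rtTA/GFP, and CA-ERBB2 pups carried TetON-CAERBB2 in addition. Controls were littermates without it. The transgene is a constitutively active form of the receptor ERBB2 that is switched on by rtTA and doxycycline. Tamoxifen was given at 75 mg/kg on postnatal days 0 and 1 and doxycycline at 100 mg/kg on day 2, in 1 protocol for the whole study, although the treatment label stands only with CA-ERBB2 cells. GFP and rtTA mark whichever cells had Fgfr3-driven Cre, a promoter that is active in several supporting cell types and can be active in outer hair cells. Cells of several pups were pooled for each sort, so a plate, and not a pup, was the replicate. P-values therefore measure the spread between plates, which may be partly technical.

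Proteins bound for secretion enter the ER through a translocon, receive a sugar tree from the oligosaccharyltransferase, and fold with the help of chaperones and disulfide isomerases. When unfolded protein accumulates, the sensors IRE1, PERK and ATF6 start the unfolded protein response (UPR), which raises transcription of chaperone genes and, when prolonged, of stress genes such as Ddit3. Part of that response acts through splicing of Xbp1 messenger RNA, which counts per gene cannot show. In the cochlea, supporting cells and the cells of the greater epithelial ridge secrete matrix such as the tectorial membrane proteins. Ddost, Pdia6, Rcn3 and Sdf2l1 were used by the study, with Dcn, to mark the lateral part of the greater epithelial ridge. The study also reported these markers in a cluster made up only of CA-ERBB2 cells, which it found enriched in Spp1, and in other clusters.

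The factors that raise chaperone genes in the UPR read a composite promoter element, the ER stress response element (ERSE). Its exact letters are shown here for the 5 of the 10 genes that carry them. Because the element is one of chaperone genes, matches among the 10 are no independent finding. The letters searched were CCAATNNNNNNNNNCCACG on both strands, in the stretch from 250 bases before to 50 after each RefSeq start (build GRCm38.p6). All 10 genes had a promoter in that table. An exact match was found in Hspa5, Hsp90b1, Calr, Canx and Pdia6, against 37 of 27025 genes in the table (0.137%). Capitals mark the fixed letters, the sequences run 5′ to 3′ on the strand of the gene, and a match to the opposite strand reads CGTGG before ATTGG.
Hspa5 site: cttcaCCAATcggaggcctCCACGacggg
Hsp90b1 distal site: caagcCCAATcgcaaggagCCACGcttcg
Hsp90b1 proximal site: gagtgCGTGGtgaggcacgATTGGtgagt
Calr site: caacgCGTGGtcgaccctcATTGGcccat
Canx site: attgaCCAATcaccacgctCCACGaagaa
Pdia6 site: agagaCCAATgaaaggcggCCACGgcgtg

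These windows lie at chr2:34772020-34772048 (Hspa5, plus strand), chr10:86705633-86705661 and chr10:86705528-86705556 (Hsp90b1, minus strand), chr8:84847070-84847098 (Calr, minus strand), chr11:50325795-50325823 (Canx, minus strand) and chr12:17266486-17266514 (Pdia6, plus strand). With the start base counted as 0, the Hspa5 match spanned positions -65 to -47 and the Pdia6 match -98 to -80. The matches in Calr, from -162 to -144, and in Canx, from -145 to -127, lay farther out, and Hsp90b1 had matches from -212 to -194 and from -107 to -89. The related letters ATTGGNCCACG (ERSE-II), which share the CCACG end, were in none of the 10 and in 0.0444% of genes, and TGACGTGG (the UPR element of XBP1), whose opposite strand begins with CCACG, was in none of the 10 and in 0.714%. A match is a description of the letters, and the absence of one says nothing about a factor acting elsewhere.

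Reads per cell ranged from 1443 to 5178221 counts, with plate medians of 2264848 to 3264468. Plates differed more in complexity than in depth, since the median number of genes detected per cell was 10198 and 8679 on plate 1 of CA-ERBB2 and Control and 1742 to 2954 on the other 4 plates. Of the cells, 2 CA-ERBB2 and 33 Control held fewer than 100000 counts. Wells A12 to D12 of each plate stood apart, since 22 of their 24 cells had more than 10000 genes detected, and in CA-ERBB2 they held 9 Spp1-high and 2 Spp1-low cells by the classes used below. What these wells held was not given in the sources used here, and results that rest on them are given with and without them. The labelled cell type was checked with 12 supporting cell markers, whose summed level lay between 1508 and 4723 CPM (counts per 1000000 counts of the plate, its total scaled by the TMM factor of edgeR) on every plate, against 37.5 to 1141 CPM for 8 hair cell markers and 148.6 to 1591 CPM for 12 macrophage markers. Sums were 4154 to 6975 CPM for 8 mesenchyme markers and 2444 to 7671 CPM for 13 greater epithelial ridge markers. For 5 Schwann cell markers they were 431 to 2285 CPM. The check thus did not set supporting cells apart from all other cell types. Hemoglobin RNA differed by genotype, with 4 genes summing to 31.0 to 681 CPM on CA-ERBB2 plates and 3160 to 7050 CPM on Control plates, and the part of this in the comparison of genotypes was not tested.

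Summed over all 10 genes, the level was 5012, 3988 and 6725 CPM on CA-ERBB2 plates 1 to 3 and 4124, 4375 and 5620 CPM on Control plates. The ranges of the genotypes overlapped, and the mean of the first was 1.11 times that of the second. With plain totals in place of TMM scaling, a choice made after seeing the data, the sums were 6632, 3110 and 4616 per 1000000 counts in CA-ERBB2. They were 5364, 4807 and 5481 in Control, a ratio of 0.917, so the order of the means depended on the scaling. Spp1 counts were kept in these totals, and took 9.10% and 9.38% of CA-ERBB2 plates 2 and 3. With Spp1 left out of the totals, the 10 genes took 0.670%, 0.342% and 0.509% of the counts on CA-ERBB2 plates. On Control plates they took 0.536%, 0.481% and 0.549%. Per kilobase of exon, which allows genes to be compared, Pdia3 was the most abundant of the 10 at 252 ± 72.1 CPM per kb (SD, n = 6 plates). It was followed by Calr at 237 ± 92.6, Hspa5 at 225 ± 94.3, Hsp90b1 at 190.4 ± 26.3 and Pdia6 at 149.0 ± 44.2 CPM per kb. Lower levels per kb were measured for Ddost at 134.9 ± 42.2, Rcn3 at 132 ± 39.0, Pdia4 at 104.7 ± 30.8 and Canx at 93.2 ± 30.5 CPM per kb. In this order no gene differed from the next by more than the larger of their SDs, except that Canx exceeded Sdf2l1, the lowest at 19.5 ± 9.20 CPM per kb, on 6 of 6 plates.

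To ask whether CA-ERBB2 changed these genes, counts were summed per plate and compared with edgeR's quasi-likelihood test over 21416 genes, with Benjamini-Hochberg adjustment and a call at an adjusted p under 0.05. A sum over a plate cannot tell fewer expressing cells from less RNA per cell. None of the 10 was called, in a comparison that called 1 gene in all (0.00467%, Serpinb2, higher, encoding a serine protease inhibitor and named because the count was so small). None of the 10 reached an unadjusted p under 0.05, which 5.16% of all genes did, and none had plates that separated by genotype, which 9.09% of all genes had. The log2 fold changes, CA-ERBB2 over Control, ran from -0.29 for Pdia3 to 0.47 for Hspa5 and Ddost, with a median of 0.27 against -0.02 over all genes, and SEs of 0.44 to 0.71. With plain totals, Spp1 counts included, both medians were below 0, at -0.081 for the 10 and -0.27 over all genes. At that scaling 4 of the 10 had folds above 1 in place of 7. DESeq2, which called 235 genes, called none of the 10. The 95% intervals allowed up to a 3.08-fold rise of Hspa5 and up to a 4.11-fold rise of Sdf2l1, so the comparison did not show the genotypes to be alike.

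**Figure D1:**
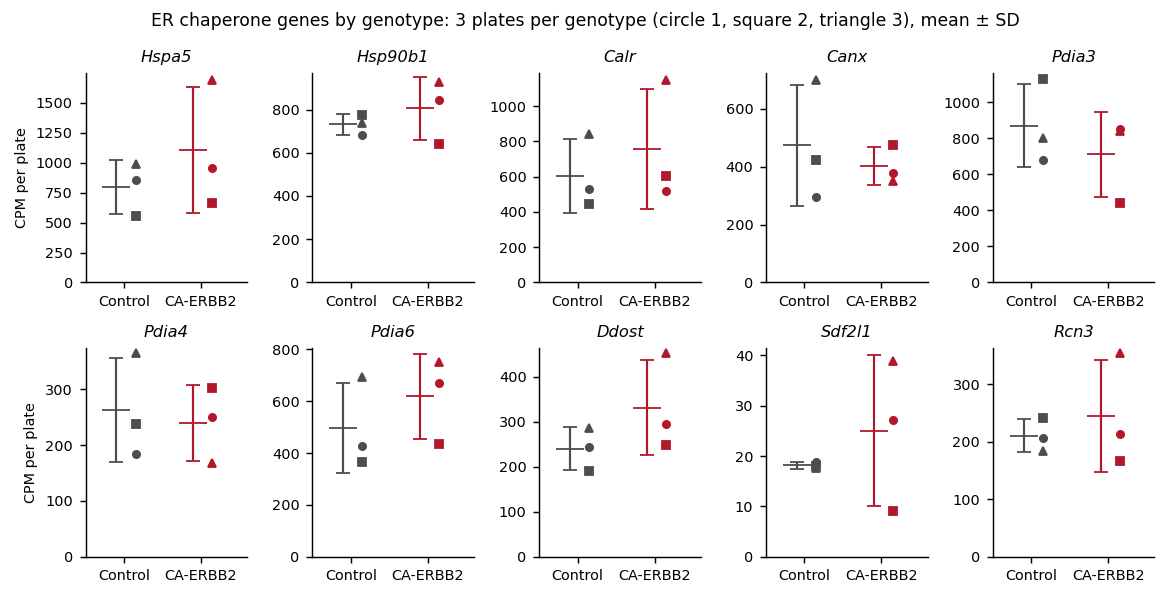
CPM of each of the 10 genes (y axis, from 0) in Control (grey) and CA-ERBB2 (red) plates, with the mean and SD of 3 plates per genotype beside the points. The points of the genotypes overlap in every panel, and the Hspa5 points run from 553 to 1690 CPM.

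The direction of the genotype difference also changed when the cells rich in Spp1 were left out. CA-ERBB2 plates held 4, 23 and 25 cells in which Spp1 took 1% or more of all counts, and Control plates held 0, 0 and 1. With those cells left out, 1 of the 10 genes kept a fold above 1 (Hspa5, log2 fold change 0.31). The median log2 fold change of the 10 became -0.16, against -0.043 over all genes. The share of all genes with folds above 1 was not computed there. Pdia6 went from 0.32 to -0.42, Calr from 0.32 to -0.33 and Hsp90b1 from 0.14 to -0.25 on that scale, and Ddost, Sdf2l1 and Rcn3 also changed sign. None of the 10 was called either way.

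The second comparison set these Spp1-high cells against Spp1-low cells of the same CA-ERBB2 plates, where Spp1 took under 0.1% of the counts. Plates 1 to 3 gave 4, 23 and 25 high cells and 52, 34 and 33 low cells, and 3, 2 and 1 cells between the classes were left out. The median Spp1 share of the high cells was 10.2%, 13.6% and 12.2%. Because so large a share would press down every other gene, the Spp1 row was removed before scaling, and the plate was a term of the model.

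Summed over the 10 genes, Spp1-high cells stood at 5875, 5670 and 8644 CPM on plates 1 to 3, and Spp1-low cells at 4273, 2970 and 3850 CPM. The high class was thus above the low class on each plate, by 1.37, 1.91 and 2.24 times. By gene, 9 of 10 had a fold above 1, all but Canx, against 53.2% of all genes, and 8 of 10 were higher on all 3 plates, all but Canx and Pdia4. Of all 18156 genes tested, 16.4% were higher on all 3 plates, and among the 1908 genes with a mean of 100 CPM or more, a group chosen after seeing the data that holds 9 of the 10, the share was 30%. The plates of the classes did not overlap for 5 genes (Hsp90b1, Calr, Pdia6, Ddost and Rcn3), against 6.26% of all genes and 12.7% of the abundant ones that lay higher in this way. The median log2 fold change of the 10 was 1.02, a fold of 2.03, against 0.11 over all genes and 0.30 over the abundant genes, of which 64.3% had folds above 1.

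The fold of the sum kept its direction on each plate with plain totals and without wells A12 to D12, but the counts by plate did not. With plain totals the high class was 1.296, 1.34 and 2.60 times the low class, and without wells A12 to D12 it was 1.44, 1.51 and 2.34 times. In each case 9 of 10 genes had a fold above 1 and 6 were higher on all 3 plates, against 14.2% of all genes with plain totals and 12.4% without the wells, and Hspa5 and Pdia3 were the genes that no longer were. The plates of Calr alone did not overlap with plain totals, against 4.33% of all genes that lay higher in this way. Without the wells the 5 genes named above did not overlap, against 5.68%. The median log2 fold change of the 10 was 0.89 with plain totals, where that of all genes was -0.025, and 0.95 without the wells, where that of all genes was -0.73.

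None of the 10 passed the test, with edgeR adjusted p from 0.933 to 1.000, while the upper ends of the 95% intervals lay between 1.93-fold and 11.5-fold, so the lack of calls did not show the classes to be alike. At an unadjusted p under 0.05 and a fold above 1 stood Hsp90b1, Calr and Pdia6, 3 of 10, against 2.59% of all genes. The test called 5 of 18156 genes (0.0275%), all higher in Spp1-high cells, namely Timp1, Serpinb2, Lgals1, Ank and Cd74, and 855 were at an unadjusted p under 0.05. DESeq2 called 839 genes and none of the 10. With every cell weighted equally on the scale of log2(CPM + 1) and tested with limma, 349 genes were called, none of them among the 10, and the lowest adjusted p of the 10 was 0.0626, where it lay between 0.246 and 1.000 under the other alternatives. Under that weighting all 10 had a difference above 0 and the median of all genes was itself at 0.37.

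**Figure D2:**
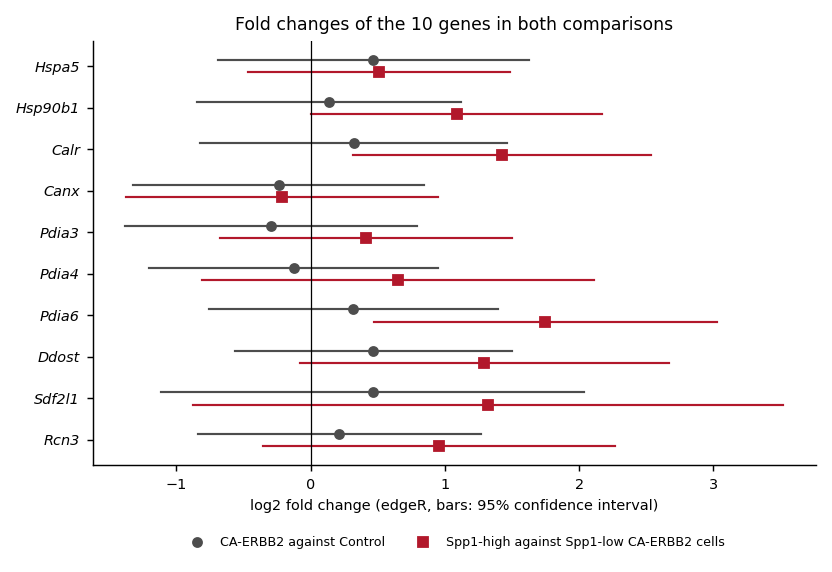
Log2 fold change (x axis) of each gene with its 95% confidence interval from edgeR, for CA-ERBB2 against Control (grey circles) and for Spp1-high against Spp1-low CA-ERBB2 cells (red squares). The intervals of Hsp90b1, Calr and Pdia6 in the second comparison lie above 0 before adjustment, and all others include 0.

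Measures of the cells themselves also differed between the Spp1 classes, though for genes detected the direction differed by plate. The median number of genes detected was 14502.5 in high and 10179 in low cells on plate 1, 2916 and 3042 on plate 2, and 2939 and 1184 on plate 3. Without wells A12 to D12 they were 11353 and 10127.5, 2350 and 3042, and 2768 and 1184. The 12 supporting cell markers all had folds below 1 in the high class, 4 of them at an unadjusted p under 0.05, and their summed level was 807 to 1560 CPM in high and 2284 to 6305 CPM in low cells. Of all 18156 genes, 385 had folds below 1 at that p. Of 8 bone cell markers 6 were tested, 5 of them had folds above 1, and their sum was 636 to 4169 CPM in high and 137 to 280.4 CPM in low cells. Bglap (osteocalcin) stood at 87.3, 421 and 495 CPM in high and 0.0272, 5.97 and 0.130 CPM in low cells. Alpl had the fold below 1, at 11.4, 1.41 and 14.4 CPM in high and 40.0, 62.5 and 138.5 CPM in low cells. The log2 fold change of Runx2 was 0.11 ± 0.86 (SE). Of 12 macrophage markers 10 were tested and 9 had folds above 1, with a median log2 fold change of 3.75, while their sum overlapped, at 427 to 1312 CPM in high and 105.5 to 1547 CPM in low cells. Fcer1g, a signalling chain of Fc receptors, was at 42.4, 180.0 and 346 CPM in high and 0.552, 325 and 0 CPM in low cells, and the leukocyte marker Ptprc at 2.63, 1.19 and 2.96 CPM and at 0.237, 6.59 and 0 CPM. Both were chosen after their values were seen. Without the wells 5 macrophage markers were tested, 2 of them with folds above 1 and a median log2 fold change of -0.12, while that of the supporting cell markers went from -1.49 to -5.44. The part of these differences in the chaperone result was not tested.

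Among the general chaperones, Hspa5 encodes BiP, the Hsp70 of the ER lumen and the protein that holds the UPR sensors inactive. It was at 959, 667 and 1690 CPM on CA-ERBB2 plates and 853, 553 and 990 CPM on Control plates, overlapping between genotypes. In Spp1-high cells it was at 1143, 725 and 2016 CPM and in Spp1-low cells at 794, 619 and 1181 CPM. Hspa5 was higher in the high class on each plate, though not on plate 2 with plain totals or without wells A12 to D12, and by less than the plates differed from each other, with a log2 fold change of 0.51 ± 0.42 (SE, edgeR adjusted p = 0.981).

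Hsp90b1 encodes endoplasmin, the Hsp90 of the ER, which folds a narrower set of client proteins. Levels were 844, 642 and 929 CPM in CA-ERBB2 plates and 681, 772 and 739 CPM in Control plates. By Spp1 class they were 1017, 1059 and 1237 CPM in high and 725, 387 and 495 CPM in low cells, so that each high value lay above each low value. The log2 fold change was 1.09 ± 0.47 (SE, edgeR unadjusted p = 0.0488, adjusted p = 0.978). Exons of Hsp90b1 (chr10:86690209-86705509, minus strand) overlap Gm15344 and Gm25745 on the same strand and 1810014B01Rik on the other, which makes the assignment of some of its reads uncertain.

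Sdf2l1, a partner of the BiP co-chaperone cycle, was the scarcest of the 10. In CA-ERBB2 plates it was at 27.3, 9.15 and 38.8 CPM and in Control plates at 18.9, 18.1 and 17.6 CPM. In high cells it was at 35.1, 15.8 and 53.7 CPM and in low cells at 22.9, 5.08 and 16.3 CPM, with a log2 fold change of 1.32 ± 0.95. The value of a plate could rest on few cells, since 1 cell gave 95.9% of the Sdf2l1 counts of the low cells on plate 2 and 93.3% on plate 3.

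Calr and Canx encode calreticulin and calnexin, the soluble and the membrane-bound lectin that hold sugar-bearing proteins while they fold, and they went apart. Calr was at 725, 1119 and 1589 CPM in high and 418, 302 and 530 CPM in low cells, without overlap. Its log2 fold change was 1.42 ± 0.48 (SE, edgeR unadjusted p = 0.0181, adjusted p = 0.950). Canx was at 350.4, 429 and 291 CPM in high and 334, 496 and 409 CPM in low cells, higher in high cells on plate 1 only (on no plate with plain totals), with a log2 fold change of -0.21 ± 0.50. The difference between the 2 genes was not tested. By genotype, Calr was at 519.7, 605 and 1149 CPM in CA-ERBB2 and 533, 443 and 843 CPM in Control plates, and Canx at 379, 475 and 351 CPM and at 295, 424 and 701 CPM.

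Pdia3, the disulfide isomerase that works with both lectins, was at 770.1, 499 and 984 CPM in high and 749, 392 and 543 CPM in low cells. The high class was above the low on each plate, though on plate 3 only with plain totals or without wells A12 to D12, and the log2 fold change was 0.42 ± 0.47. Among genotypes Pdia3 had the lowest log2 fold change of the 10, with 852, 439 and 842 CPM in CA-ERBB2 and 680.2, 1128 and 802 CPM in Control plates.

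Ddost encodes a subunit of the oligosaccharyltransferase, which adds the sugar tree that calreticulin and calnexin later read. It was at 341, 397 and 671 CPM in high and 257, 164 and 146 CPM in low cells, without overlap, for a log2 fold change of 1.29 ± 0.60 (SE, edgeR unadjusted p = 0.0615, adjusted p = 0.978). On CA-ERBB2 plates it was at 295, 249 and 452 CPM and on Control plates at 243, 190.5 and 286 CPM, with ranges that overlapped.

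Pdia6 and Pdia4 encode 2 further disulfide isomerases, of which the first also restrains IRE1 and PERK. Pdia6 had the largest log2 fold change of the 10 between Spp1 classes, at 930, 897 and 1110 CPM in high and 573, 163 and 267 CPM in low cells. High and low plates did not overlap, and the log2 fold change was 1.75 ± 0.55 (SE, edgeR unadjusted p = 0.0134, adjusted p = 0.933). Pdia4 was at 332, 262 and 233 CPM in high and 216, 330.1 and 73.3 CPM in low cells, lower in high cells on plate 2, where 1 cell gave 72.3% of the low class counts. Between genotypes Pdia6 was at 672, 434 and 752 CPM in CA-ERBB2 and 429, 368 and 693 CPM in Control plates, and Pdia4 at 251, 302 and 168 CPM and at 183, 238 and 365 CPM.

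Rcn3 encodes reticulocalbin, a calcium-binding protein of the secretory pathway linked to collagen output. In high cells it was at 232, 267 and 459 CPM and in low cells at 184, 112 and 190.2 CPM, so the plates did not overlap, with a log2 fold change of 0.96 ± 0.57. Rcn3 had a count in 11 of 34 low and 14 of 23 high cells on plate 2. On plate 3 it had a count in 8 of 33 low and 18 of 25 high cells. A single low cell gave 52.1% of the low class counts on plate 2. The genotypes overlapped, at 213, 166 and 353.8 CPM in CA-ERBB2 and 207, 241 and 183 CPM in Control plates.

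**Figure D3:**
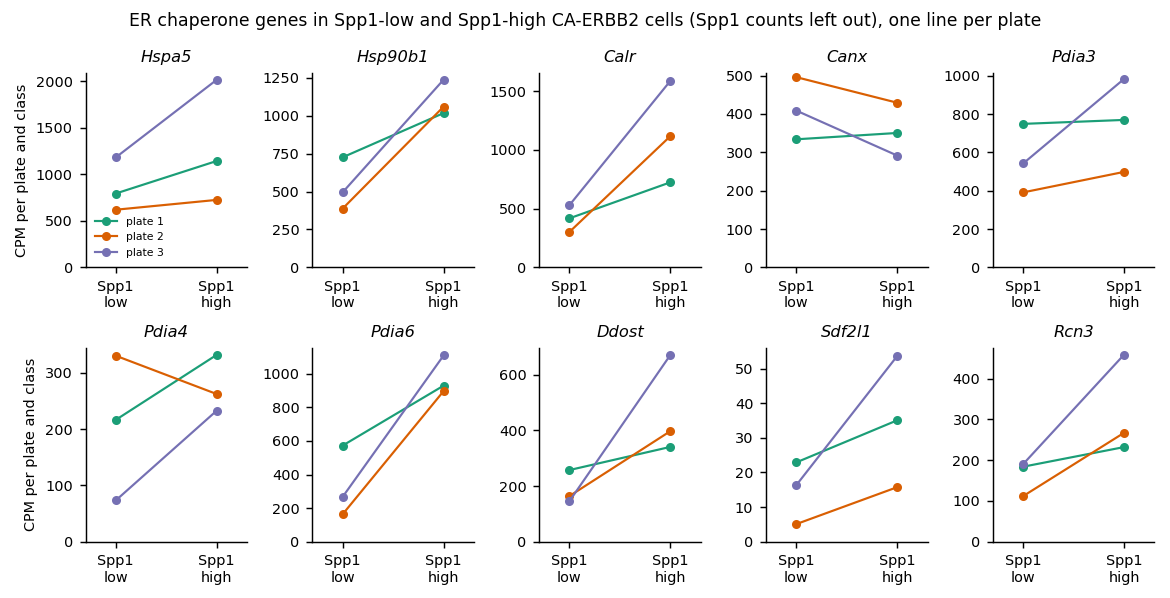
CPM without Spp1 counts (y axis, from 0) of each gene in Spp1-low and Spp1-high CA-ERBB2 cells, with 1 line per plate. Lines rise on all 3 plates in 8 panels, or in 6 with plain totals, and fall on 2 plates for Canx and on plate 2 for Pdia4.

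Set beside the promoter letters, the 5 genes with an ERSE match had class log2 fold changes of 0.51 (Hspa5), 1.09 (Hsp90b1), 1.42 (Calr), -0.21 (Canx) and 1.75 (Pdia6). The 5 without a match stood at 0.42 (Pdia3), 0.65 (Pdia4), 1.29 (Ddost), 1.32 (Sdf2l1) and 0.96 (Rcn3). The smaller values of the first group were thus Hspa5 and Canx, and the ranges of the groups overlapped.

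The other genes of the pathway were followed in lists, whose shares of folds above 1 stand beside 53.2% of all genes and 64.3% of the abundant ones. Higher on all 3 plates were 16.4% of all genes and 30% of the abundant ones. At an unadjusted p under 0.05 (edgeR) and a fold above 1 the shares were 2.59% and 8.54%. With plain totals the number of folds above 1 was lower by 1 for cytosolic chaperones and for matrix genes and the same for the other 8 lists. Without wells A12 to D12, 36.4% of all genes had folds above 1. Above 1 were then 8 of 13 tested genes of UPR signalling, 18 of 22 other ER lumen genes and 20 of 21 translocon genes. Of 23 matrix genes 6 were, with a median log2 fold change of -1.94. Higher on all 3 plates were 2, 9, 16 and 4 genes of these lists in that order, against 12.4% of all genes. Of 15 tested genes of UPR signalling (sensors, transcription factors and stress targets), none was called or reached an unadjusted p under 0.05. Folds were above 1 for 11 of them with a median log2 fold change of 1.19, but 3 were higher on all 3 plates. Their summed level was 924, 1171 and 751 CPM in high and 744, 380.1 and 1334 CPM in low cells, a ratio of 1.24, 3.08 and 0.562 by plate. Ddit3, the stress factor CHOP, was at 58.6, 120.2 and 55.5 CPM in high and 23.9, 52.7 and 2.03 CPM in low cells, with a log2 fold change of 2.29 ± 1.08 (SE, edgeR unadjusted p = 0.066). Atf4, the transcription factor downstream of PERK, was at 145, 195 and 189.9 CPM in high and 217, 31.4 and 70.3 CPM in low cells. Lowest by fold among those named were Atf3, at 370.2, 5.36 and 12.2 CPM in high and 140.3, 37.7 and 565 CPM in low cells, and the eIF2 phosphatase subunit Ppp1r15a at a log2 fold change of -0.89 ± 0.78.

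Among 22 tested chaperones and enzymes of the ER lumen outside the 10, none was called, 19 had folds above 1, 13 were higher on all 3 plates (8 with plain totals) and the median log2 fold change was 0.91. At an unadjusted p under 0.05 were 3, all with folds above 1. They included Erp44, which retains and folds oligomeric cargo, at 165.6, 607 and 472 CPM in high and 103, 19.7 and 85.1 CPM in low cells, and the BiP co-chaperone Dnajc10 at a log2 fold change of 1.86 ± 0.69. The BiP partner Sil1 (-0.55 ± 0.80) and Dnajb9 (-0.27 ± 0.97), itself a target of spliced XBP1, had the lowest p among log2 fold changes below 0.

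In the entry and glycosylation machinery 1 gene had a fold below 1. None of 21 genes of the signal recognition particle, translocon and signal peptidase was called, but 20 had folds above 1, 15 were higher on all 3 plates, 5 were at an unadjusted p under 0.05 and the median log2 fold change was 1.09. Ssr1 of the translocon-associated complex stood at 213, 386 and 286 CPM in high and 131, 41.3 and 58.3 CPM in low cells, and Srpr, the receptor of the particle, at 149, 927 and 337 CPM and at 77.3, 55.3 and 132 CPM. Srp14, a protein of the particle, was the exception at -0.29 ± 0.68. All 11 other subunits of the oligosaccharyltransferase had folds above 1, with a median log2 fold change of 0.91, none called, and 10 higher on all 3 plates. Dad1 was at 299, 2253 and 2341 CPM in high and 234, 754 and 606 CPM in low cells, and the catalytic subunit Stt3a had a log2 fold change of 1.25 ± 0.50.

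Of 25 genes of ER to Golgi transport, none was called, 22 had folds above 1 and the median log2 fold change was 0.93. Kdelr2, a receptor that returns chaperones to the ER, was at 122.7, 761 and 467 CPM in high and 69.6, 137.0 and 78.5 CPM in low cells, and Kdelr3 had a log2 fold change of 3.83 ± 1.43. At the low end were Mia3, the collagen export receptor, at -0.43 ± 0.81 and the coat protein Sec24a at -0.08 ± 0.89. For 14 genes of ER-associated degradation the median log2 fold change was 0.72 with none called, and the lowest unadjusted p among folds above 1 belonged to Derl2 at 2.21 ± 0.79 and Derl1 at 1.01 ± 0.72. Derl3 was at or under 9.27 CPM in every sum with an SE of 5.22.

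Collagen-folding enzymes gave 7 of 9 folds above 1, none called, with a median log2 fold change of 0.59. P4ha2, a prolyl hydroxylase, was at 44.9, 1.77 and 11.1 CPM in high and 7.17, 0.0443 and 0 CPM in low cells, and Crtap had a log2 fold change of 1.60 ± 0.78, while the lysyl hydroxylases Plod1 and Plod2 were at -1.26 ± 1.15 and -0.39 ± 0.89. The other 4 CREC proteins, the family of Rcn3, were split, with Calu at 0.80 ± 0.63, Sdf4 at 0.95 ± 0.85, Rcn1 at -0.54 ± 0.56 and Rcn2 at -0.39 ± 0.59 and none higher on all 3 plates (1 with plain totals). Of 19 cytosolic chaperones, which fold proteins outside the ER, none was called, 17 had folds above 1 and the median log2 fold change was 0.51. Hspb1 had a log2 fold change of 3.56 ± 1.28 from at most 29.8 CPM, Hsp90ab1 of 0.74 ± 0.43, and the heat shock genes Hsph1 and Dnajb1 of -1.32 ± 0.87 and -0.93 ± 0.64.

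Of other secreted matrix genes more had folds below 1 than above. Of 23 tested, 15 had folds below 1, none was called, and the median log2 fold change was -0.85. At an unadjusted p under 0.05 were 7 with folds below 1 and 2 with folds above 1, against 385 and 470 of all 18156 genes. The plates did not overlap for 6 that lay lower and 2 that lay higher, against 6.26% of all genes that lay higher in this way. The share of all genes that lay lower in this way was not computed. Col1a1 was at 967, 1312 and 935 CPM in high and 130.5, 329 and 75.9 CPM in low cells, and fibronectin (Fn1) at 642, 998 and 599 CPM and at 206, 556 and 117 CPM. Dcn was at 294, 572 and 203 CPM in high and 1231, 1767 and 942 CPM in low cells, and Col2a1, the main collagen of the tectorial membrane, at 1436, 860.3 and 691 CPM and at 4344, 1839 and 3063 CPM. Dcn, the marker that the study placed with Ddost, Pdia6, Rcn3 and Sdf2l1, was thus lower in the high class on each plate, where those 4 genes were higher on each plate. The study reported Dcn, with those genes, in its cluster of CA-ERBB2 cells enriched in Spp1. That cluster was not compared with the high class.

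**Figure D4:**
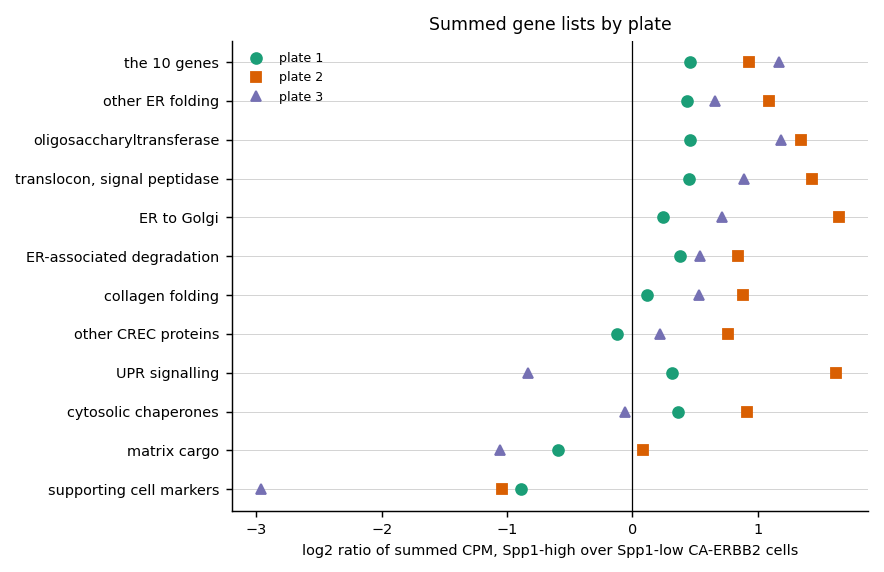
Log2 ratio of summed CPM in Spp1-high over Spp1-low CA-ERBB2 cells (x axis) for each gene list (y axis), with 1 symbol per plate. The 10 genes lie above 0 on all 3 plates, UPR signalling lies on both sides with a plate 3 ratio of 0.562, and supporting cell markers lie below 0.

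Between genotypes no gene of these lists was called. Median log2 fold changes, CA-ERBB2 over Control, were 0.79 for the other oligosaccharyltransferase subunits, 0.74 for the translocon list, 0.49 for the other ER lumen enzymes, 0.40 for ER to Golgi transport and -0.16 for UPR signalling. They were -0.10 for ER-associated degradation, 0.20 for collagen folding, -0.32 for the other CREC proteins, 0.28 for cytosolic chaperones and -0.43 for matrix genes. With plain totals the medians of collagen folding (-0.12) and cytosolic chaperones (-0.021) were below 0, and those of the translocon list (0.35) and the other oligosaccharyltransferase subunits (0.37) stayed above 0.

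Across single cells the relation of the 10 genes to the Spp1 share was weak and differed by plate. Spearman's rho over the 59 cells of a plate, between the summed level without Spp1 counts and the share of Spp1, was -0.03, 0.20 and 0.37 on CA-ERBB2 plates 1 to 3 and 0.06, 0.55 and 0.11 on Control plates. The highest value was thus on a Control plate without any Spp1-high cell. On that plate 23 of 59 cells held fewer than 100000 counts. Tied at no Spp1 count were 30, 42 and 43 cells on Control plates 1 to 3 and 24, 10 and 3 on CA-ERBB2 plates. The cells of a plate are not independent replicates and differ in depth. The summed level itself had a rho of 0.35 to 0.72 with the number of genes detected. With that number held constant by partial rank correlation, the median over the 6 plates was 0.12 in place of 0.15, and the highest values became 0.23 on Control plate 2, 0.20 on CA-ERBB2 plate 2 and 0.19 on CA-ERBB2 plate 3. By gene, Rcn3 had a rho above 0 on 6 of 6 plates (median 0.22). Calr (0.28), Pdia6 (0.22), Pdia3 (0.14) and Sdf2l1 (0.14) did on 5 of 6, while Pdia4 had the lowest median at 0.06. In the partial correlation Rcn3 stayed above 0 on 6 plates and Calr and Sdf2l1 on 5, and Pdia6 and Pdia3 were above 0 on 3. Among Spp1-high cells alone, rho was 0.45 over 23 cells of plate 2 and -0.23 over 25 cells of plate 3, so a larger Spp1 share did not come with more of the 10 genes on both plates.

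**Figure D5:**
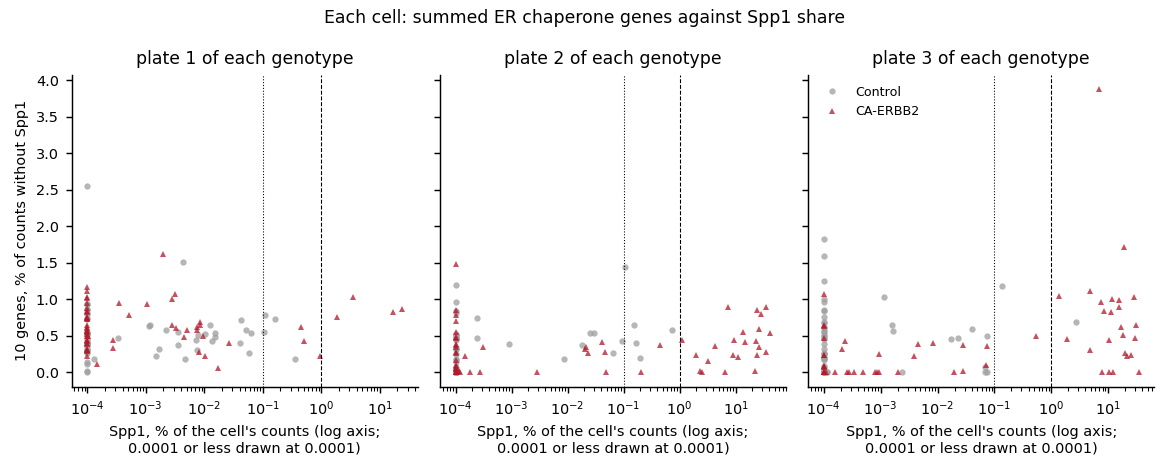
Each point is a cell, with the Spp1 share of its counts on a log x axis and the 10 genes as a percent of its counts without Spp1 on the y axis, for Control (grey circles) and CA-ERBB2 (red triangles). The dashed and dotted lines are the class limits of 1% and 0.1%, and cells with little of the 10 genes occur on both sides of them.

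Low and high levels of the machinery were found in both Spp1 classes. In CA-ERBB2 the 10 genes took a median of 0.466% of counts without Spp1 in 52 high cells, with a range of 0.000% to 3.88%, and 0.372% in 119 low cells, with a range up to 1.62%. These medians and the counts that follow pool the plates. Plate 1 gave 52 of the low and 4 of the high cells. On plates 1 to 3 the medians were 0.847%, 0.362% and 0.618% in high and 0.596%, 0.267% and 0.0803% in low cells. Of the low cells 13 had no count of any of the 10, of the high cells 1, and of 166 low Control cells 35. A share of 1% or more was reached by 7 high cells (13.5%) and 9 low cells (7.56%). Cells were also thinned at random to 100000 counts, Spp1 counts included. A median of 10, 5 and 6 of the 10 genes was then detected in high cells of plates 1 to 3. In low cells the median was 9, 5 and 1.

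Detection was then compared between genotypes in cells thinned to 100000 counts, Spp1 counts included. Spp1 took 0.944%, 9.10% and 9.38% of the counts of CA-ERBB2 plates 1 to 3 and at most 0.109% of those of Control plates. The depth left for other genes was thus lower in cells with much Spp1. Detection over all genes was not computed. In the mean of the plates all 10 genes were found in a smaller share of CA-ERBB2 cells, by 1.99 percentage points for Sdf2l1 up to 11.1 for Pdia3, and the exact permutation test over plates (two-sided, unadjusted) gave p from 0.6 to 0.9, where 0.1 is the smallest p it can give. Hspa5 was found in 96.6%, 51.7% and 55.2% of thinned CA-ERBB2 cells and in 94.9%, 69.4% and 65.3% of Control cells. Thinning leaves out the shallow cells, 2 CA-ERBB2 and 33 Control, and in all cells unthinned every one of the 10 genes was found in a larger share of CA-ERBB2 cells, Hspa5 by 6.21 points.

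Levels of the 10 genes went together from cell to cell. Over their 45 pairs the median within-plate rho ran from 0.195 (Sdf2l1 with Rcn3) to 0.642 (Hsp90b1 with Calr), with a median of 0.514, and 0.179 with the number of genes detected held constant. The genes whose pattern over cells was most like the sum of the 10, by mean rho over 6 plates among 1657 genes found in 30% or more of the cells of each plate, were 1810014B01Rik (0.607), the actin gene Actg1 (0.554), Ssr2 of the translocon-associated complex (0.544), the ER isomerase Fkbp9 (0.519), Fkbp1a (0.502), the lysosomal membrane gene Lamp1 (0.502), Calu (0.501) and Bzw1 (0.499). The first has exons that overlap those of Hsp90b1 on the opposite strand, so reads of the 2 genes may not be told apart, and the median of all 1657 genes was 0.305. Of the 40 genes most alike, 10 came from the ER lists, which made up 58 of the 1657.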

How the data were processed

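Per the labels and the methods of the study, the authors demultiplexed reads with bcl2fastq 2.19.1, aligned them with STAR 2.7.6a to GRCm38 with Gencode annotation, and deposited raw counts of reads per gene for each cell, made by featureCounts of Subread 2.0.1 over exons with reverse strand counting. Whether the kit keeps strand was not given in the sources used here, and counts are of reads, without molecular identifiers. The number in a sample's name was taken as its plate. The 10 genes, the gene lists and the Spp1 classes were chosen with earlier results of these data known.

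Counts were summed per plate (or plate and Spp1 class, 1% or more against under 0.1%, Spp1 row removed), filtered with filterByExpr, scaled by TMM, and entered in quasi-likelihood tests of edgeR 4.0.16 (R 4.3.3), with Benjamini-Hochberg adjustment over all genes. Plate was a term in the class comparison only, whose classes come from the same plates. CPM in the text use TMM-scaled totals. DESeq2 1.42.0 and limma 3.58.1 (pseudocount 1) were alternatives, and plain library totals without TMM were an alternative chosen after seeing the data. Exon lengths and overlaps came from Gencode for GRCm38, and promoters from RefSeq. The genes named in lists were those with the 2 lowest p in each direction in the class comparison, of which 1 is not reported here. The fits were tested on simulated data. Thinned detection used exact permutation over plates, and correlations used scipy 1.17.1 without a test.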

Additional observations from a re-analysis of the deposited data

How the results depend on the processing

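None of the 10 genes was called in either comparison under any alternative run. CA-ERBB2 against Control gave 1 called gene, and 235 with DESeq2, 285 without a filter on low counts, 0 without Spp1-high cells, 0 with cells weighted equally, 1 with library totals without TMM (chosen after seeing the data) and 0 to 2 with a plate left out. With the plate number as a replicate block it gave 1. Same-numbered plates deviated together with r of 0.246, 0.062 and 0.039, and differently numbered plates with r of -0.129 to 0.051. The labels do not say whether same-numbered plates were sorted together. The Spp1 classes gave 5, and 839 with DESeq2, 199 without the filter, 3 with no replicate block, 16 with the high class at 5% or at 10%, 3 in filtered cells with at least 1000 genes, 349 with equal weights, 3 with library totals without TMM and 4 to 24 with a plate left out (24 without plate 3, 6 without wells A12 to D12, which held 2 of the 4 high cells of plate 1). Leaving out those wells moved the median of all genes to -0.73 and equal weights to 0.37 on the log2 scale, while the median of the 10 stayed between 0.82 and 1.89 in all class alternatives. The cause of these shifts was not tested.

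Genotype log2 fold changes turned without Spp1-high cells for Hsp90b1 (-0.25), Calr (-0.33), Pdia6 (-0.42), Ddost (-0.16), Sdf2l1 (-0.067) and Rcn3 (-0.078), with equal weights for Canx (0.22), Pdia3 (0.052) and Pdia4 (0.27), in filtered cells for Pdia4 (0.070), and with library totals without TMM for Hsp90b1 (-0.12), Calr (-0.039) and Rcn3 (-0.12). Leaving out a plate gave -0.10 to 0.66 for Calr, -0.49 to 0.18 for Canx, -0.33 to 0.21 for Pdia4 and -0.14 to 0.44 for Rcn3.

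Class log2 fold changes turned with equal weights for Canx (0.72), Atf3 (0.89), Ppp1r15a (0.33), Sil1 (0.33), Dnajb9 (0.42), Derl3 (0.26), Srp14 (1.37), Rcn1 (0.64), Rcn2 (0.92), Mia3 (0.17), Sec24a (0.88), Plod2 (0.86), Hsph1 (0.17) and Dnajb1 (0.53). Srp14 turned in filtered cells (0.17) and Sec24a with the high class at 5% (0.077) or 10% (0.049) or the low class under 1% (0.017). Leaving out a plate gave -0.95 to 0.44 for Dnajb9, -3.23 to 2.22 for Derl3, -0.93 to 0.45 for Srp14, -0.28 to 0.033 for Sec24a and -1.08 to 0.38 for Plod2.

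Detection, CA-ERBB2 minus Control in percentage points, turned in unthinned cells to 6.21 for Hspa5, Ddost and Sdf2l1, 0.565 for Hsp90b1, 7.91 for Calr, 2.26 for Canx, 4.52 for Pdia3, 3.95 for Pdia4, 3.39 for Pdia6 and 11.3 for Rcn3. Leaving out a plate gave -23.1 to 0.460 for Hspa5, -23.9 to 0.316 for Hsp90b1, -16.7 to 1.46 for Calr, -20.2 to 6.61 for Canx, -27.2 to 0.406 for Pdia3, -25.3 to 5.84 for Pdia4, -22.9 to 3.87 for Pdia6, -23.4 to 3.15 for Ddost, -13.8 to 5.62 for Sdf2l1 and -20.0 to 5.11 for Rcn3. The median rho of the 10 genes with the Spp1 share was 0.15, with 0.10 to 0.20 under every alternative.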
